A study of Mus musculus with 24 samples.

Results

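The response of humanised livers to phenobarbital was described from the 2 arrays of phenobarbital-treated human CAR mice, set against 4 arrays of human CAR mice that had received corn oil (2 arrays) or TCPOBOP (2 arrays). These 6 arrays were chosen by genotype and treatment from the 24 arrays of the series, with 1 mouse, labelled female, of mixed C57BL/6x129Sv background per array and RNA from liver. Human CAR mice (labelled CAR.AH) lacked the mouse CAR gene and carried human CAR as a transgene under a mouse albumin promoter, so the human receptor came from a liver promoter that is not its own. Treatment lasted 3 days, with intraperitoneal injections every 24 h, and livers were taken 6 h after the last injection. Phenobarbital (phenobarbitol in the labels) was given at 100 mg/kg per day, TCPOBOP at 3 mg/kg in 1 injection followed by corn oil, and CITCO, used for comparison, at 30 mg/kg per day. The other groups used were knockout mice without either receptor (labelled CAR.KO, mCAR -/-) and wild-type mice with mouse CAR, each with 2 mice per treatment. Per the series' design text, phenobarbital moves both receptors into the nucleus, TCPOBOP binds the mouse and CITCO the human receptor. TCPOBOP therefore served beside the corn oil vehicle as an injection without its receptor.

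CAR, the constitutive androstane receptor, is a nuclear receptor that sits in the cytoplasm of the resting hepatocyte and, once activated, enters the nucleus, pairs with the retinoid X receptor and switches on genes for cytochrome P450s, conjugating enzymes and efflux pumps. Phenobarbital activates it without binding it as a ligand, through its phosphorylation state, whereas TCPOBOP and CITCO bind the mouse and the human receptor respectively. The receptor is known for speeding the clearance of drugs, bilirubin and bile acids, for lowering gluconeogenic and lipogenic transcripts, and, in rodents, for liver growth. Cyp2b10 is the standard read-out of its activity, and the growth arrest gene Gadd45b is a further early target.

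The nuclear receptor pair binds repeats of a 6-base element. The stretch of 250 bases before the start of the P450 genes that rose was read from RefSeq promoters of build GRCm38.p6, all on the forward strand, and is shown because these genes carry the response described below. Capitals mark matches to AGGTCA or AGTTCA on either strand. The windows are chr7:25897408-25897657 for Cyp2b10, chr19:39286835-39287084 for Cyp2c29, chr19:40089429-40089678 for Cyp2c50 and chr19:39006769-39007018 for Cyp2c55.
Cyp2b10: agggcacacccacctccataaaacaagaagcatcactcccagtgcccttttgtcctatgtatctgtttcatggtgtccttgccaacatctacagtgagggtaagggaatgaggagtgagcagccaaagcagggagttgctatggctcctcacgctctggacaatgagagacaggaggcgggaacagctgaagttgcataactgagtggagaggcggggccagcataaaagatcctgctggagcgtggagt
Cyp2c29: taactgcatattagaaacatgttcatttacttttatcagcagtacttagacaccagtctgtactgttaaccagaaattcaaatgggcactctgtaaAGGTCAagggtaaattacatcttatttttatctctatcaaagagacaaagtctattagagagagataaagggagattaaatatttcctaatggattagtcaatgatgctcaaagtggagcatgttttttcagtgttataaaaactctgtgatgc
Cyp2c50: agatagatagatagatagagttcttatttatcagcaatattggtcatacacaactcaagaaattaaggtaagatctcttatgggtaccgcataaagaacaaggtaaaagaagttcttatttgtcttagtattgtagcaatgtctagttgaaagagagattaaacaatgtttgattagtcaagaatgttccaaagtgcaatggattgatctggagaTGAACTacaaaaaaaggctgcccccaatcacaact
Cyp2c55: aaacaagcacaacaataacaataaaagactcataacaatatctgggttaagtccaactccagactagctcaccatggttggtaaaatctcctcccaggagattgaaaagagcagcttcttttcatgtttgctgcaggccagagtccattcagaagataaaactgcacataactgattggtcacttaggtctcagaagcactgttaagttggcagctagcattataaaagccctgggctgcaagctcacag
Cyp2c29 held 1 match, AGGTCA, starting at position -154 from the gene's start, and Cyp2c50 held 1, TGAACT, which is AGTTCA on the reverse strand, at position -35. The windows of Cyp2b10 and Cyp2c55 held 0. Of 32851 promoter windows of that length, 24.2% held at least 1 match of either kind, 14% AGGTCA and 11.8% AGTTCA. A match is a run of letters and not a measured binding site, and windows without one say nothing of elements farther away.

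Values are RMA log2 expression, on which a difference of 1 is a 2-fold change. Differences come with the standard error (SE) of a limma fit over all 24 arrays and with Benjamini-Hochberg adjusted p-values over 9167 genes, and a gene was called at an adjusted p under 0.05. Numbers of mice limit the precision of every value. A gene that lay under the 40th percentile of its array is called dim. Arrays of mice 1 and 2 are called array 1 and array 2. The labelled tissue was checked by hepatocyte markers: all 13 measured were above the dim limit on the 6 arrays, with a mean level of 12.11 and 12.16 on the phenobarbital arrays and 12.20 to 12.27 on the controls.

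The 2 phenobarbital mice were not alike, and array 1 stood apart from the other 23 arrays. Its median correlation with the others was 0.965, against 0.977 for array 2 of the knockout phenobarbital group and 0.979 to 0.990 for the other 22. Along principal component 1, with 21.7% of the variance, it lay at -37.4, the knockout array at -22.3, and the rest between -8.60 and 11.6. Between the 2 human CAR phenobarbital mice 328 genes differed more than 2-fold and 55 more than 4-fold, against 241 and 36 in the knockout phenobarbital group and 13 to 77 and 0 to 11 in the other 10 groups. As a measure of RNA quality, the 3' minus 5' signal of the Actb and Gapdh control probe sets was 0.547 on array 1 and 0.605 on array 2, against 0.360 to 0.593 on the rest. The main counts and many genes are therefore given for both arrays and for each alone, the lone mouse being assumed to vary like those of other groups. By the counts above, the 2 phenobarbital mice differed more than the mice of any other group. Standard errors, p-values and counts for a lone array thus borrow the spread of other groups. They do not measure the spread among phenobarbital-treated human CAR mice. A phenobarbital difference from the 4 controls printed without an array number is that of both arrays together. For such genes the difference on each array alone is not printed.

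Phenobarbital changed 252 of the 9167 genes (2.75%) in human CAR mice against the 4 controls, 54 higher (0.589%) and 198 lower (2.16%). The higher genes were led by Cyp2b10, by Socs2, a feedback inhibitor of cytokine and growth hormone signalling, and by P450s of the Cyp2c family. The lower ones were led by Dbp, a transcription factor driven by the circadian clock, and included Tpmt, Ppara and Acly. Array 1 alone gave 1518 calls (16.6%), 452 higher (4.93%) and 1066 lower (11.6%), and array 2 alone gave 3 (0.0327%), Cyp2b10, Cyp2c54 and Trim24. At an unadjusted p under 0.05 the counts were 660 higher and 1410 lower for both arrays, and 214 higher and 371 lower for array 2. Among the called genes both phenobarbital arrays lay outside the range of the controls for 51 of 54 higher and 193 of 198 lower ones. The calls rest on the same arrays, so these counts are no separate support. Of all tested genes 10.6% lay above and 16.5% below the controls on both arrays. Counts of list members below are to be read against the shares of all tested genes in this paragraph. For the called genes the change was larger on array 1 in 38 of the 54 and 185 of the 198. The medians were 0.94 on array 1 and 0.54 on array 2 for the higher genes and -0.84 and -0.43 for the lower ones. The share of calls that were higher was 21.4%, against 33.3% of 159 calls with cyclic loess and 15.6% of 243 with arrays centred on their medians; for array 1 it was 29.8%, against 46.1% with cyclic loess.

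The number of calls rested on single mice. It was 2 with array weights, 5 in a fit of the 8 human CAR arrays alone and 575 with knockout phenobarbital array 2 left out of the fit. It was 54 without corn oil array 1, 213 without corn oil array 2, 54 without TCPOBOP array 1 and 83 without TCPOBOP array 2. Cyp2b10 and Cyp2c54 were the 2 genes called whichever of the 6 arrays was left out. Of the 36 genes covered by the naming rule and called with both arrays, 34 stayed called without phenobarbital array 2 and 2 without phenobarbital array 1. The corresponding numbers were 16 and 24 without corn oil arrays 1 and 2 and 14 and 19 without TCPOBOP arrays 1 and 2.

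**Figure D1:**
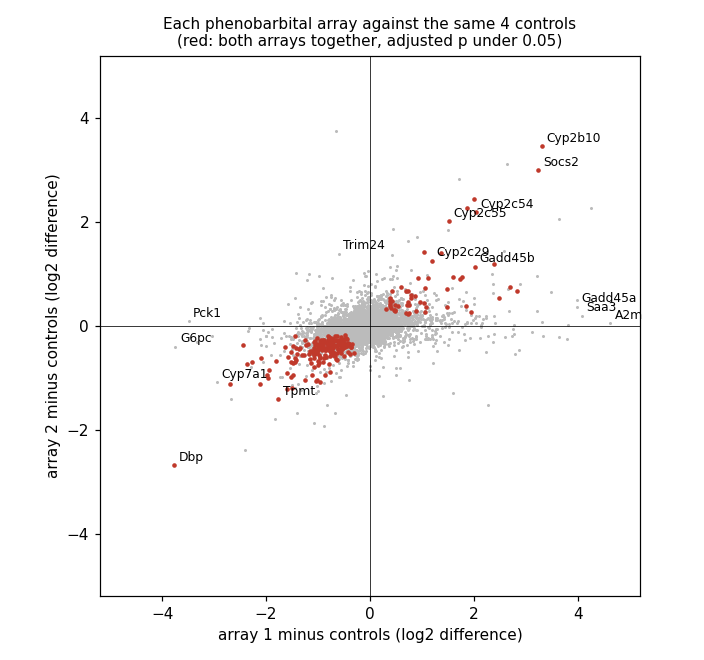
Log2 difference from the 4 control arrays on phenobarbital array 1 (horizontal axis) and array 2 (vertical axis), 1 point per tested gene, with the 252 genes called on both arrays together in red. Cyp2b10, Socs2 and the Cyp2c genes lie near equal values on both axes, whereas A2m, Saa3, Gadd45a, Pck1 and G6pc lie far from 0 on array 1 and near 0 on array 2.

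TCPOBOP and corn oil differed in 0 genes at an adjusted p under 0.05 with limma, and in 610 at an unadjusted p under 0.05. Without corn oil array 2 the count was 11. Nr1i3, the mouse CAR transcript, was low throughout. It lay at 5.60 and 5.10 on the phenobarbital arrays and at 5.03 to 5.38 on the 4 controls, against 7.37 to 7.98 on the corn oil and phenobarbital arrays of wild-type mice. Phenobarbital in human CAR mice had a change of 0.16 (adjusted p = 0.589) in it, 0.41 on array 1 and -0.09 on array 2. The human CAR transcript was not analysed here. Relative to each control alone, phenobarbital changed 61 genes against corn oil (0.665%), 10 higher (0.109%) and 51 lower, and 50 against TCPOBOP (0.545%, 19 higher and 31 lower). With cyclic loess the corn oil count was 50, with 19 higher. Without phenobarbital array 1 these counts were 0 and 3, and without array 2 they were 1311 and 1201; leaving out a corn oil array gave 0 or 96 and leaving out a TCPOBOP array 4 or 7.

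Of 22 tested P450s and their partners, 5 rose and 0 fell, against 0.589% and 2.16% of all tested genes. The median difference was 0.23 against -0.02 over all tested genes. Above the controls on both arrays lay 9, against 10.6% of all tested genes. The 5 that rose were Cyp2b10, Cyp2c29, Cyp2c50, Cyp2c54 and Cyp2c55. Array 1 alone gave the same 5 names and a fall of Cyp3a25, and array 2 alone gave Cyp2b10 and Cyp2c54, with list medians of 0.14 and 0.28.

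Cyp2b10, which oxidises many drugs, lay at 11.22 and 11.37 on the phenobarbital arrays, at 8.22 and 8.82 on the corn oil arrays and at 7.02 and 7.59 on the TCPOBOP arrays. Both treated mice were far above all controls and close to each other, and the TCPOBOP mice were the lower of the controls. The difference was 3.38 (SE 0.33, adjusted p = 0.000161) and was nearly the same on array 1 (3.31) and array 2 (3.46). It was 2.78 (adjusted p = 0.00807) against corn oil and 3.99 (adjusted p = 0.000119) against TCPOBOP. Its probes may cross-hybridise with close relatives. The other probe sets gave 3.06 and 3.38.

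Cyp2c29 lay at 12.16 and 12.22 on the phenobarbital arrays, at 10.74 and 10.67 on corn oil and at 11.24 and 11.22 on TCPOBOP. No value of the treated mice overlapped with the controls, and the spread within a group was small. The difference was 1.22 (SE 0.16, adjusted p = 0.00298), with 1.19 on array 1 and 1.25 on array 2, and array 2 alone gave an adjusted p of 0.0515. Cyp2c54 lay at 10.78 and 10.93 under phenobarbital, against 8.53 and 9.77 on corn oil and 8.19 and 8.50 on TCPOBOP. The treated mice were the highest, and 1 corn oil mouse stood above the other controls. The difference was 2.11 (SE 0.27, adjusted p = 0.00298), and array 2 alone gave 2.18 (adjusted p = 0.0416).

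Cyp2c50 lay at 10.74 and 11.18 on the phenobarbital arrays, 8.28 and 10.18 on corn oil and 7.92 and 8.56 on TCPOBOP. Again corn oil array 2 was the highest control, without reaching the treated mice. Its difference was 2.23 (SE 0.37, adjusted p = 0.0112), and 2.44 with an adjusted p of 0.153 on array 2 alone. Cyp2c37, another member, had the same high control: it lay at 8.38 and 8.84 under phenobarbital and at 6.06, 8.51, 4.20 and 4.17 on the 4 controls. Here corn oil array 2 lay within the treated range, and the difference of 2.87 had an adjusted p of 0.0561. Genes of the Cyp2c family are near copies, and array probes may not separate them in full.

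Cyp2c55 lay at 7.41 and 7.90 on the phenobarbital arrays, at 6.08 and 5.91 on corn oil and at 5.80 and 5.75 on TCPOBOP, so both treated mice were above a tight set of controls. The difference was 1.77 (SE 0.38, adjusted p = 0.0277), 1.52 on array 1 and 2.01 on array 2 (adjusted p = 0.22). Outside the Cyp2b and Cyp2c families, Cyp3a11 and Cyp1a2 had smaller differences, whereas Cyp26a1 and Cyp7a1, given further below, did not. Cyp3a11, the main mouse Cyp3a enzyme, lay at 12.34 on both phenobarbital arrays and at 11.95 to 12.20 on the controls, a difference of 0.27 (SE 0.13, adjusted p = 0.235). Cyp1a2, which oxidises caffeine, lay at 10.53 and 10.67 against 10.37 to 11.35 and had a difference of -0.30 (SE 0.19, adjusted p = 0.347).

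**Figure D2:**
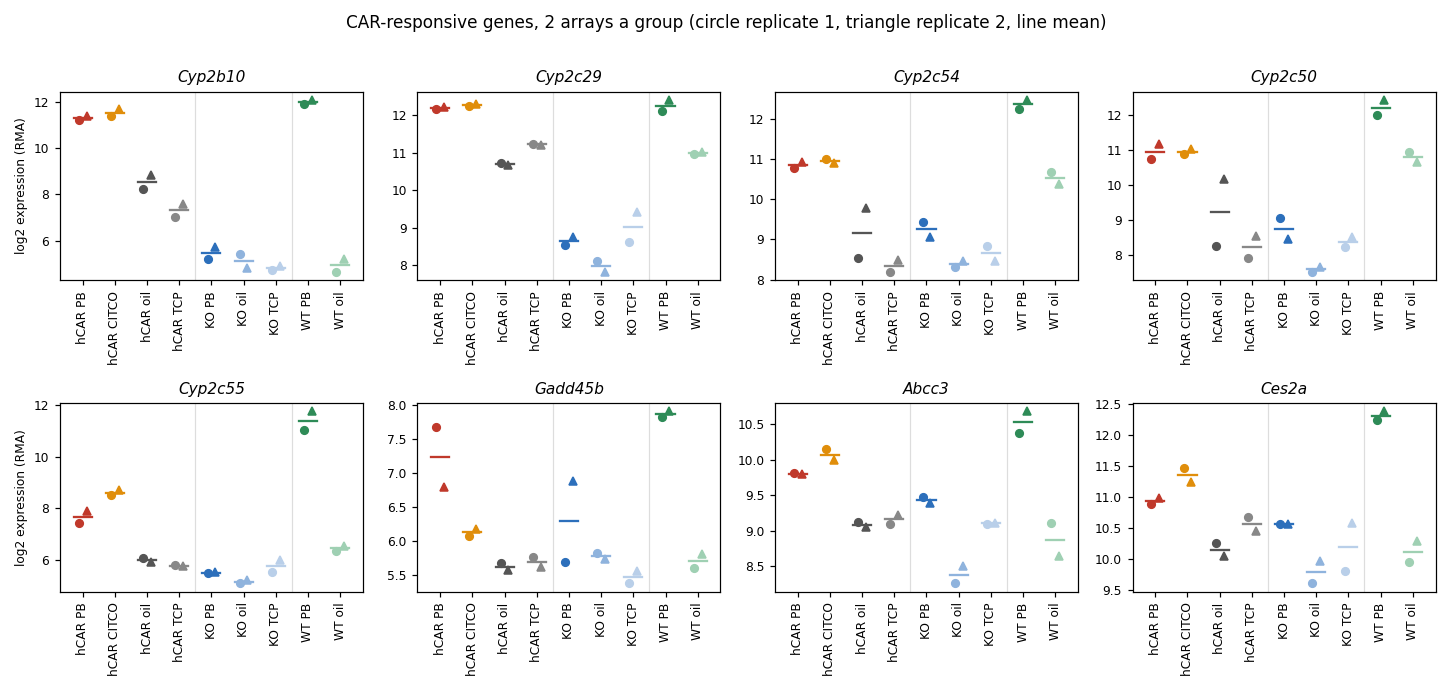
Log2 expression of 8 CAR-responsive genes on each array of human CAR (hCAR), knockout (KO) and wild-type (WT) mice under phenobarbital (PB), CITCO, corn oil or TCPOBOP (TCP), with circles for mouse 1, triangles for mouse 2 and a line at the group mean. Cyp2b10 lies at 11.22 and 11.37 under phenobarbital in human CAR mice, above all 4 of their controls, and at 5.19 and 5.71 under phenobarbital in knockout mice.

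The conjugating enzymes, which make drugs more soluble, were set against all tested genes, of which 0.589% rose and 2.16% fell. Of 20 glutathione transferases 0 were called, with a median of -0.20, and at an unadjusted p under 0.05 limma gave 1 higher and 3 lower. Gstm3, a transferase that responds to mouse CAR, lay at 9.77 and 10.05 on the phenobarbital arrays, at 9.48 and 8.59 on corn oil and at 9.90 and 9.24 on TCPOBOP. The treated and control mice overlapped, and the difference was 0.61 (SE 0.31, adjusted p = 0.254). Ces2a, a carboxylesterase that splits ester drugs, lay at 10.88 and 10.97 on the phenobarbital arrays and at 10.25, 10.04, 10.67 and 10.44 on the 4 controls. Both treated mice were above the controls by a small margin, with a difference of 0.57 (SE 0.17, adjusted p = 0.0722). With cyclic loess it was 0.72 (adjusted p = 0.048).

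Of 33 other conjugation and hydrolysis enzymes 0 rose and 2 fell, with a median of -0.02. Tpmt, the methyltransferase that inactivates thiopurine drugs, was the larger fall. It lay at 6.22 and 6.57 on the phenobarbital arrays, at 7.67 and 8.04 on corn oil and at 8.19 and 8.05 on TCPOBOP. No control came within 1 unit of the treated mice, and the difference was -1.59 (SE 0.23, adjusted p = 0.00582), with -1.77 on array 1 and -1.42 on array 2 (adjusted p = 0.206). A second, dimmer probe set of Tpmt gave -0.23. Fmo5, a flavin monooxygenase, lay at 9.52 and 9.85 against 10.19 to 10.77 on the controls and fell by 0.84 (SE 0.18, adjusted p = 0.0245).

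Among 15 transporters 1 rose and 1 fell. Abcc3, a pump of the blood-facing membrane that exports conjugates, lay at 9.81 and 9.80 on the phenobarbital arrays, at 9.12 and 9.05 on corn oil and at 9.10 and 9.22 on TCPOBOP. The 2 treated mice were alike and stood clear of the controls, with a difference of 0.68 (SE 0.12, adjusted p = 0.0155), and 0.67 (adjusted p = 0.22) on array 2 alone. Abcc6, another pump of that family, lay at 6.45 and 7.04 against 7.35 to 7.68 on the controls and fell by 0.79 (SE 0.19, adjusted p = 0.0364). Of 18 CAR partners and xenobiotic receptors 1 fell, Rxra, the retinoid X receptor with which CAR pairs. Rxra lay at 8.28 and 8.81 on the phenobarbital arrays and at 9.09 to 9.40 on the controls, a difference of -0.70 (SE 0.12, adjusted p = 0.0155).

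Gadd45b, which tempers stress signalling in the growing liver, lay at 7.67 and 6.79 on the phenobarbital arrays, at 5.68 and 5.57 on corn oil and at 5.76 and 5.61 on TCPOBOP. Both treated mice were above a very narrow set of controls, array 1 by more than array 2. The difference was 1.58 (SE 0.24, adjusted p = 0.00582), with 2.02 on array 1 and 1.14 (adjusted p = 0.206) on array 2. A dimmer probe set gave 1.46 and a further one 0.16. In knockout mice Gadd45b lay at 5.69 and 6.88 under phenobarbital and at 5.38 to 5.82 on the controls. The second of these phenobarbital mice was thus above human CAR array 2. Of 16 early growth and stress genes 2 rose, Gadd45b and the transcription factor Jun, and the list's median difference was 0.94, against 1.72 on array 1 and 0.37 on array 2. Jun lay at 7.88 and 5.94 against 5.13 to 5.67 on the controls, a difference of 1.51 (SE 0.35, adjusted p = 0.0346) that was 2.48 on array 1 and 0.54 on array 2. Of 24 genes of S phase and mitosis 0 were called, with a median of 0.07, and 0 up and 3 down at an unadjusted p under 0.05.

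Further rises were shared by both mice. Socs2 lay at 9.64 and 9.39 on the phenobarbital arrays, at 6.66 and 6.86 on corn oil and at 5.89 and 6.17 on TCPOBOP. The treated mice were alike and far above the controls, and the difference of 3.12 (SE 0.56, adjusted p = 0.0155) was 2.99 (adjusted p = 0.22) on array 2 alone. Socs2 was variable elsewhere: it lay at 7.19 and 9.29 on the 2 phenobarbital arrays of knockout mice. Cyp26a1, the P450 that degrades retinoic acid, lay at 8.59 and 8.98 on the phenobarbital arrays and at 7.12, 6.47, 6.20 and 7.11 on the controls. Its difference was 2.06 (SE 0.42, adjusted p = 0.0231), with 2.26 (adjusted p = 0.22) on array 2.

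Ugcg, the glucosylceramide synthase, lay at 6.66 and 6.46 under phenobarbital and at 5.13 to 5.97 on the controls and rose by 1.01 (SE 0.15, adjusted p = 0.00582). Gpcpd1, a phosphodiesterase of choline phospholipid breakdown, lay at 9.75 and 10.13 against 8.46 to 9.09 and rose by 1.23 (SE 0.26, adjusted p = 0.0264). Glul, the glutamine synthetase of hepatocytes around the central vein, lay at 10.24 and 9.92 against 8.45 to 9.51 and rose by 0.89 (SE 0.21, adjusted p = 0.0365). Each of these 3 had both treated mice above all controls, with differences of 0.91, 1.42 and 0.74 on array 2.

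Other rises of the naming rule were mostly larger on array 1. Orm3, an acute phase glycoprotein, was the exception, with 8.46 and 8.49 on the phenobarbital arrays against 6.77 to 7.48 and a difference of 1.38 (adjusted p = 0.0481). Sgms1, a sphingomyelin synthase, lay at 7.92 and 5.76 (difference 1.75, adjusted p = 0.0391) and was dim on 3 of the 4 controls. Bcl3, a regulator of NF-kappaB, lay at 8.86 and 6.93 (1.72, adjusted p = 0.046), with array 2 at the level of the highest control, 6.92. Ifi47, an interferon-induced GTPase, lay at 9.90 and 9.08 against 8.05 to 8.26 (1.36, adjusted p = 0.0126). The kinase Pim3 lay at 11.12 and 10.29 (1.31) and Zfp36l1, a protein that promotes mRNA decay, at 9.80 and 9.15 (1.27).

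Of all tested genes 0.589% rose and 2.16% fell with both arrays, and of 19 lipogenesis genes 0 rose and 5 fell. Array 2 alone gave 0 calls (0 up and 7 down at an unadjusted p under 0.05 with limma). Of the 19, 10 lay below all controls on both arrays, against 16.5% of all tested genes. The list had a median difference of -0.55 for both arrays together and of -0.70 and -0.55 on arrays 1 and 2. Acly, which makes cytosolic acetyl-CoA from citrate, lay at 7.12 and 7.51 on the phenobarbital arrays, at 8.89 and 8.55 on corn oil and at 9.01 and 8.46 on TCPOBOP. The treated mice were well below the controls, and the difference was -1.41 (SE 0.29, adjusted p = 0.0231), -1.22 (adjusted p = 0.41) on array 2. The pyruvate kinase Pklr lay at 6.87 and 6.74 against 7.04 to 8.85 and fell by 1.02 (SE 0.24, adjusted p = 0.0341). The desaturases Fads1 and Fads2 fell by 0.82 (adjusted p = 0.0277) and 1.09 (adjusted p = 0.0427), and Dgat2, which forms triglyceride, fell by 0.75 (adjusted p = 0.0277).

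Cholesterol synthesis genes had the lowest list median. None of the 17 tested was called with both arrays, with 0 up and 9 down at an unadjusted p under 0.05. All 17 differences were negative, from -1.55 to -0.14, with a median of -0.79, against -0.02 over all tested genes. The median was -0.69 on array 1 and -0.97 on array 2. Below all controls on both arrays lay 13 of the 17, against 16.5% of all tested genes. The mean level of the list was 7.62 and 7.42 on the phenobarbital arrays and 8.12 to 9.04 on the controls. Over the other 22 arrays of the series it was 7.63 to 9.37. Knockout mice also had low values, with 9.37 and 7.66 under phenobarbital and 8.65 and 7.63 under CITCO. Stard4, which moves cholesterol within the cell, lay at 7.33 and 7.58 on the phenobarbital arrays, 8.53 and 8.32 on corn oil and 9.02 and 8.35 on TCPOBOP, a difference of -1.10 (SE 0.31, adjusted p = 0.0627). Both treated mice were below the controls. TCPOBOP array 1 was the highest of the controls for this gene.

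**Figure D3:**
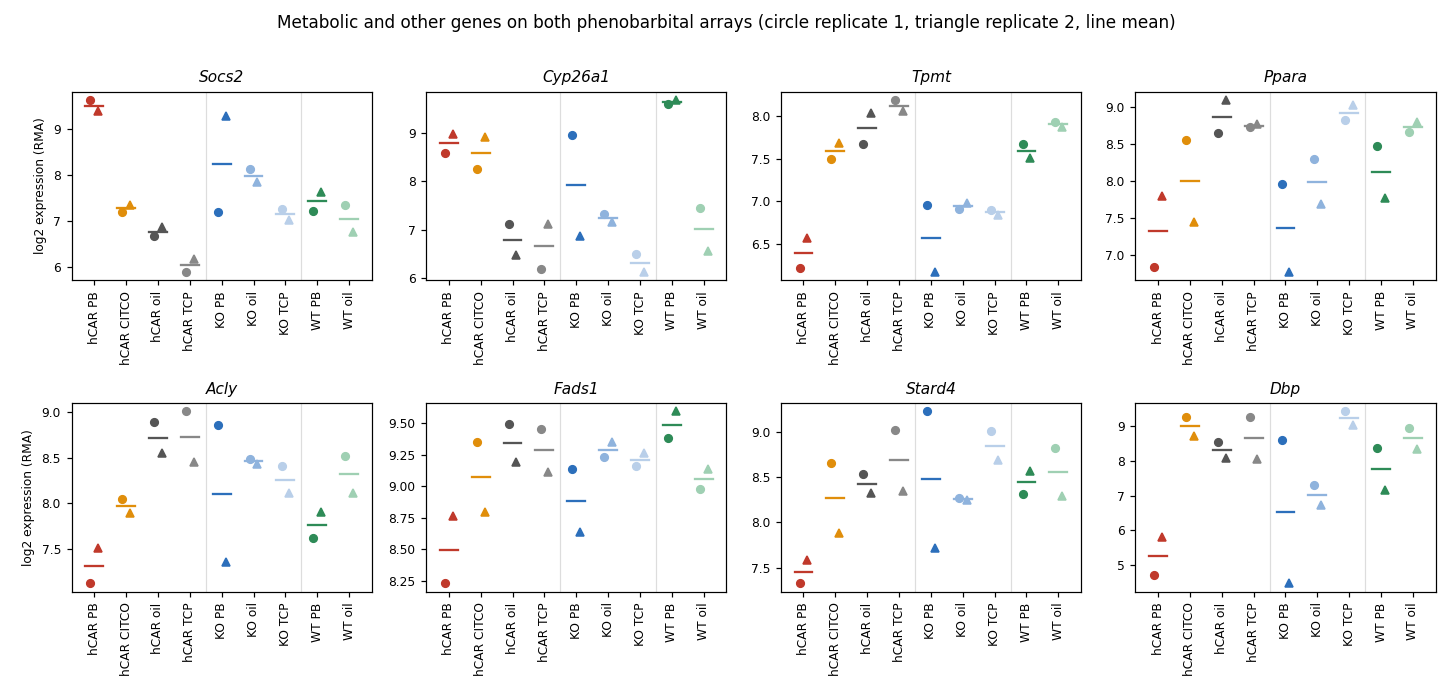
Log2 expression of 8 genes on each array of human CAR (hCAR), knockout (KO) and wild-type (WT) mice under phenobarbital (PB), CITCO, corn oil or TCPOBOP (TCP), with circles for mouse 1, triangles for mouse 2 and a line at the group mean. In human CAR mice Socs2 and Cyp26a1 lie above, and Tpmt, Ppara, Acly, Fads1, Stard4 and Dbp below, all 4 controls on both phenobarbital arrays.

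Of 28 genes of fatty acid oxidation 3 fell, Ppara, Acads and Acaa2, with a median of -0.12, and array 1 alone had 9 falls and a median of -0.36, against a median of 0.04 on array 2. Ppara, the receptor that drives these genes in fasting, lay at 6.84 and 7.80 on the phenobarbital arrays and at 8.65, 9.09, 8.72 and 8.77 on the controls. Array 2 was also clearly under the controls, and the difference was -1.49 (SE 0.34, adjusted p = 0.0317), with -1.01 (adjusted p = 0.641) on array 2. In knockout mice Ppara lay at 7.96 and 6.77 under phenobarbital and at 7.69 to 9.02 on the controls, a difference of -1.09 (adjusted p = 0.151). The effect in human CAR mice minus that in knockout mice was -0.40 (SE 0.47, adjusted p = 0.897). Acads and Acaa2, enzymes of beta oxidation, fell in human CAR mice by 0.44 (adjusted p = 0.0277) and by 0.64 (adjusted p = 0.00582). Of all tested genes 2.16% fell and 16.5% lay below the controls on both arrays. Of 20 respiratory chain genes 2 fell, Uqcrc1 by 0.40 and Cyc1 by 0.35, and 16 lay below the controls on both arrays. Their median was -0.26, with -0.37 on array 1, where 12 fell, and -0.15 on array 2.

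Of 14 circadian clock genes 0 rose and 3 fell with both arrays, and array 2 alone gave 0 calls (0 up and 7 down at an unadjusted p under 0.05 with limma). The list had medians of -0.42 for both arrays, -0.46 on array 1 and -0.45 on array 2. Dbp lay at 4.72 and 5.80 on the phenobarbital arrays, at 8.54 and 8.10 on corn oil and at 9.27 and 8.06 on TCPOBOP. The treated mice were over 2 units under every control, and the difference was -3.23 (SE 0.72, adjusted p = 0.031), -2.69 (adjusted p = 0.527) on array 2. The related factor Tef and the deubiquitinase Usp2 fell by 0.94 (adjusted p = 0.0243) and 0.75 (adjusted p = 0.0321). Dbp also differed between mice of other groups: it lay at 8.61 and 4.48 in the knockout phenobarbital mice.

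Other falls of the naming rule were larger on array 1. The replication factor Mcm10 lay at 6.10 and 7.69 against 8.44 to 9.18 (difference -1.91, adjusted p = 0.0341), with a dimmer probe set at -0.19. The transcriptional cofactor Hes6 lay at 5.06 and 6.04 against 6.85 to 7.37 (-1.62, adjusted p = 0.0155). Klf15, a factor of amino acid and glucose metabolism, lay at 6.47 and 7.96 against 8.36 to 8.97 (-1.36, adjusted p = 0.024). The potassium channel Kcnk5 lay at 4.67 and 4.97, dim on both treated arrays, against 5.89 to 6.53 (-1.35, adjusted p = 0.00582). Oaf (-1.55), the junction protein desmoplakin (Dsp, -1.48), Zfyve21 (-1.46) and the growth suppressor Tob1 (-1.41) had differences of -0.94 to -0.37 on array 2 and of -2.45 to -1.99 on array 1.

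Array 1 alone held a second set of changes that array 2 did not show at this precision. The acute phase inhibitor A2m lay at 9.80 on array 1 and 5.22 on array 2, against 4.88 to 5.63 on the controls. Its difference was 4.62 (SE 0.23, adjusted p = 3.84e-09) on array 1 and 0.04 on array 2. Saa3, an acute phase apolipoprotein, lay at 11.78 and 7.90 against 6.98 to 8.59, and Cd14, the co-receptor for bacterial endotoxin, at 9.24 and 5.43 against 4.78 to 6.22. In each of these 3 genes array 2 was inside the control range and array 1 far above it. Both arrays together gave no call for them (adjusted p = 0.0784 for A2m, 0.211 for Saa3 and 0.117 for Cd14). Saa3 also varied without phenobarbital: it lay at 10.5 and 6.9 on the human CAR CITCO arrays and at 10.28 and 8.64 on the knockout corn oil arrays.

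Of 27 acute phase genes tested, 8 rose on array 1, 0 on array 2 (1 up and 0 down at an unadjusted p under 0.05) and 1, Orm3, on both together, where all 27 differences were positive and 13 lay above the controls on both arrays. The mean level of the list was 11.74 on array 1 and 10.90 on array 2, against 10.36 to 10.89 on the controls and at most 11.02 on the other arrays of the series. Neutrophil markers moved with it: 6 of 10, among them S100a8 (8.52 and 5.18, controls 5.17 to 6.59), S100a9, Ngp and Mmp8, rose on array 1 and 0 were called on array 2 or on both. At an unadjusted p under 0.05, 0 were higher or lower on array 2 and 6 were higher on both. The mean level of the 10 was 7.36 on array 1, 6.09 on array 2 and 5.76 to 6.21 on the controls, with all 10 above the dim limit on array 1 and 8 or 9 on the controls. Their part in the other changes of array 1 was not tested. In a whole liver, more cells of a type and more RNA per cell cannot be told apart.

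Of 16 early growth and stress genes 9 rose on array 1, among them Gadd45a, which lay at 7.43 and 3.81 against 3.30 to 3.57 and was dim on all 4 controls, and Gadd45g, at 9.69 and 6.19 against 4.45 to 6.82. Their differences on array 1 were both 3.99 (adjusted p = 0.000215 and 0.00197). The stress gene Ddit4 lay at 9.84 and 5.79 against 5.44 to 6.72, and Tifa, an adaptor of innate immune signalling, at 11.06 and 7.20 against 6.85 to 8.35. Both had negative differences on array 2, -0.25 and -0.22. Hmox1, the haem oxygenase, lay at 9.74 and 6.51 against 6.18 to 6.83, a difference of 3.30 (adjusted p = 1.57e-07) on array 1 and 0.08 on array 2.

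The genes of hepatic glucose and bile acid metabolism split the mice the same way. Pck1, a key enzyme of gluconeogenesis, lay at 6.97 on array 1 and 10.55 on array 2, with the controls at 10.79, 10.39, 10.37 and 10.30. Array 1 was thus far below all controls and array 2 was within them, with differences of -3.49 (SE 0.24, adjusted p = 1.35e-07) and 0.09, and -1.70 (adjusted p = 0.0992) together. G6pc, which releases free glucose, lay at 5.33 and 8.68 against 8.59 to 9.80. Igfbp1, an insulin-sensitive secreted protein, was the reverse and lay at 12.59 and 10.59 against 7.53 to 9.54, so that array 2 was above the controls too, with differences of 4.25 (adjusted p = 0.02) and 2.26 (adjusted p = 0.848). Of 15 gluconeogenesis and fasting genes 0 were called with both arrays, with 2 up and 5 down at an unadjusted p under 0.05.

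Cyp7a1, whose product limits the rate of bile acid synthesis, lay at 6.72 and 8.57 on the phenobarbital arrays, at 9.94 and 10.19 on corn oil and at 9.48 and 9.05 on TCPOBOP. Both treated mice were below the controls, array 1 by far the more. The difference was -2.02 (SE 0.71, adjusted p = 0.114), with -2.94 (adjusted p = 0.0278) on array 1 and -1.09 (adjusted p = 0.952) on array 2. Of 16 bile acid genes 1 fell with both arrays, the growth factor receptor Fgfr4, which lay at 5.95 and 6.26 against 6.69 to 6.99 (-0.71, SE 0.14, adjusted p = 0.0214). On array 1 alone 7 changed besides Fgfr4, and Nr1h4, the bile acid receptor, fell by 1.54 (adjusted p = 0.000247) there, with 0.05 on array 2. The liver transcription factor Hhex lay at 5.59 and 8.43 against 8.28 to 8.89, and Keg1 at 5.84 and 8.88 against 8.82 to 9.46.

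**Figure D4:**
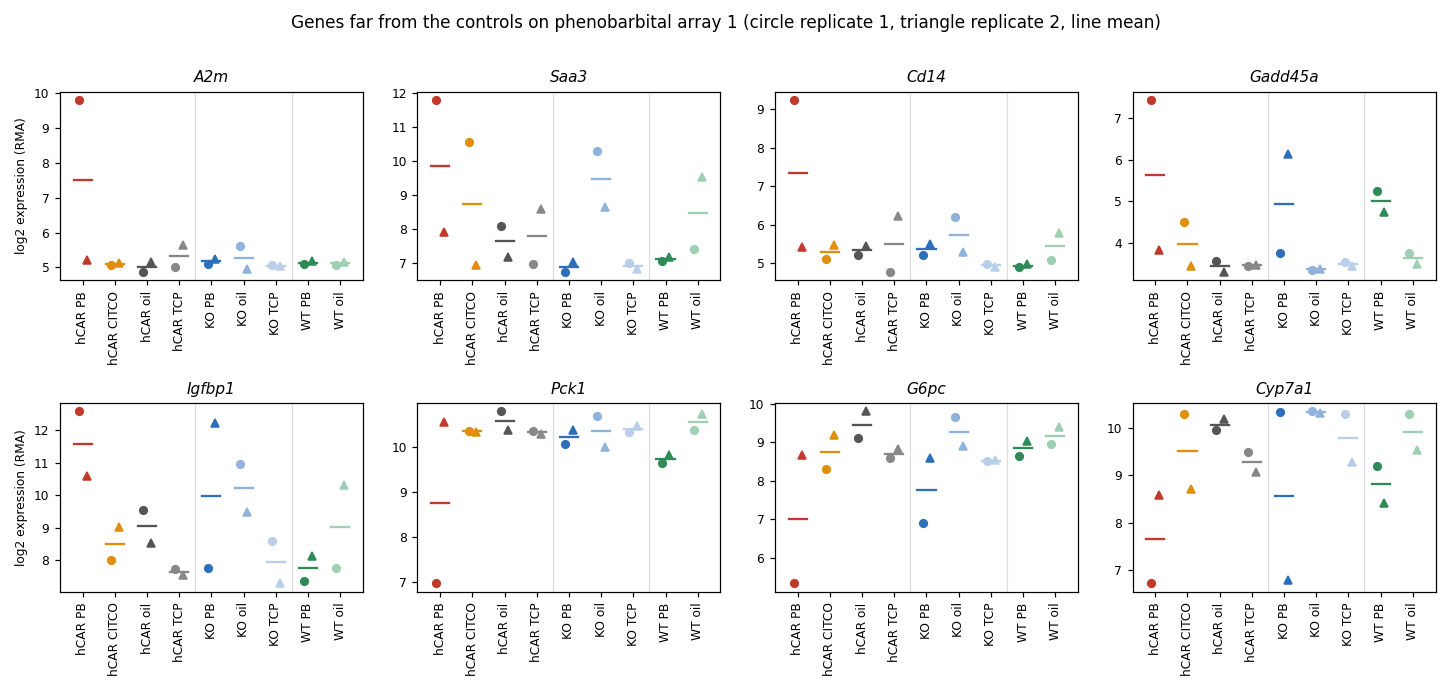
Log2 expression of 8 genes on each array of human CAR (hCAR), knockout (KO) and wild-type (WT) mice under phenobarbital (PB), CITCO, corn oil or TCPOBOP (TCP), with circles for mouse 1, triangles for mouse 2 and a line at the group mean. For A2m the first phenobarbital mouse of the human CAR group lies at 9.80 and the second at 5.22, and for Pck1 at 6.97 and 10.55.

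Array 2 alone had 1 further call. Trim24, a transcriptional cofactor with female-biased expression in liver, lay at 5.01 on array 1 and 7.00 on array 2, against 5.99, 5.89, 5.42 and 5.16 on the controls. The treated mice lay on opposite sides of the controls, with differences of -0.61 (adjusted p = 0.0473) on array 1 and 1.38 (adjusted p = 0.0154) on array 2. Of 11 female-biased genes 0 were called with both arrays (4 up and 0 down at an unadjusted p under 0.05), with medians of 0.29 on array 1 and 0.45 on array 2. Of 15 male-biased genes 1 fell, the complement gene C6, by 1.04 (SE 0.21, adjusted p = 0.0231).

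The labelled sex was set against the sex-biased lists and, outside the naming rule and chosen after the other results were seen, X- and Y-linked transcripts. Over the 24 arrays the mean level of the 15 male-biased genes was 8.31 to 10.12, with 14 or 15 above the dim limit on each array, and that of the 14 female-biased genes on the arrays was 4.53 to 5.51, with 4 to 10 above it. Of the 3 probe sets of Xist, the RNA that silences an X chromosome in female cells, 2 were dim on all 24 arrays, at 2.86 to 3.44, and the third lay at 4.72 to 5.51 and was above the limit on 20. The Y-linked Kdm5d and Uty were dim on all 24 arrays, and Eif2s3y, at 4.33 to 5.30, was above the limit on 8. The dim Xist probe sets and the male-biased list go against the label of female mice and the dim Y-linked genes do not, so these values do not settle the sex.

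Of 14 Kupffer cell markers 0 were called (1 up and 1 down at an unadjusted p under 0.05), with a median of -0.29, and their mean level was 6.94 and 7.38 on the phenobarbital arrays and 7.24 to 7.52 on the controls. Of 13 endothelial markers 1 fell, the growth factor receptor Kdr, by 0.78 (adjusted p = 0.0364), with a list median of -0.35 and mean levels of 5.80 and 6.00 against 6.17 to 6.32. Of 12 stellate cell markers 1 rose, Timp1, by 0.74 (adjusted p = 0.0372). Of 13 hepatocyte markers 2 fell, Ttr by 0.33 (adjusted p = 0.0485) and the factor Cebpa by 0.63 (adjusted p = 0.0231). Lymphocyte markers had a mean level of 4.99 and 4.91 against 4.77 to 4.94. Stellate cell markers had mean levels of 6.28 and 6.49 against 6.28 to 6.45, and bile duct markers of 4.86 and 4.93 against 4.58 to 5.02. The endothelial list was thus below all controls on both arrays, and the stellate and bile duct lists were not. The part of these levels in the results was not tested.

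**Figure D5:**
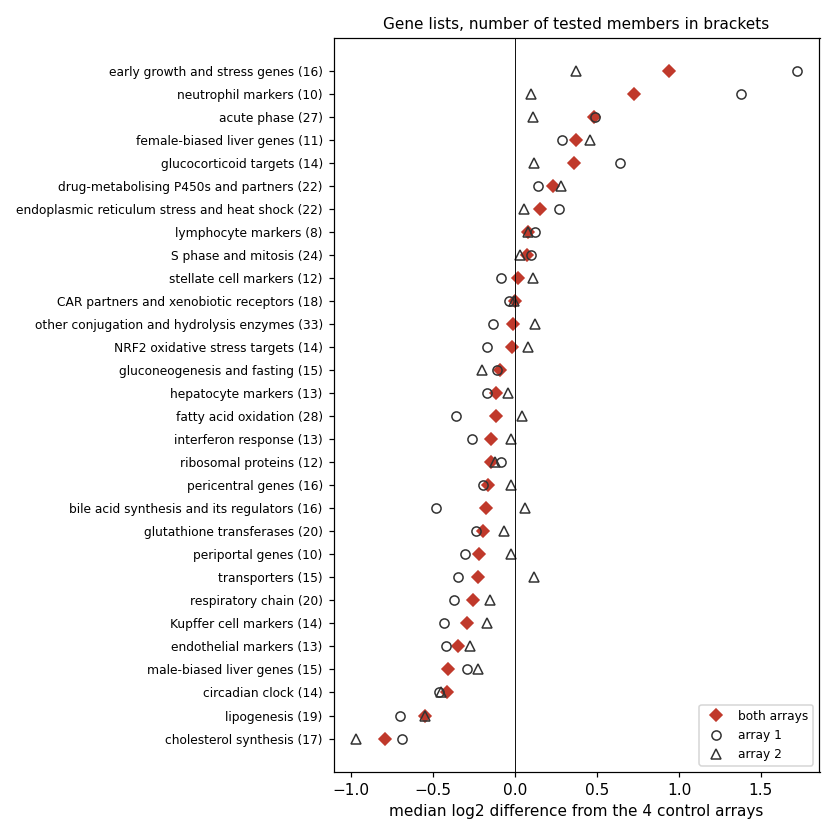
Median log2 difference from the 4 controls (horizontal axis) over the tested members of each gene list (number in brackets), for both phenobarbital arrays (filled diamonds), array 1 (circles) and array 2 (triangles). Cholesterol synthesis and lipogenesis have low medians on each array, whereas early growth and neutrophil genes have medians of 1.72 and 1.38 on array 1 and of 0.37 and 0.10 on array 2.

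Phenobarbital was next compared with CITCO, a ligand of the human receptor, in the same genotype. The doses, 100 and 30 mg/kg per day, differ, so a difference may be one of dose. Phenobarbital and CITCO differed in 82 genes (0.895%), 25 higher and 57 lower under phenobarbital. The higher share of 30.5% was 19.8% of 177 calls with arrays centred on their medians. No P450 of the 22 was among the 82. With 0.895% of all tested genes called, a count of 0 in a list of this size says little. Cyp2b10 lay at 11.37 and 11.68 and Cyp2c29 at 12.26 and 12.30 under CITCO, against 11.22 and 11.37 and 12.16 and 12.22 under phenobarbital. The values of each pair nearly met, and the differences were -0.23 (SE 0.38, adjusted p = 0.74) and -0.09 (SE 0.19, adjusted p = 0.777). Cyp2c54 (-0.09, SE 0.31) and Cyp2c50 (0.00, SE 0.43) also had small differences. Cyp2c55 lay at 8.50 and 8.70 under CITCO, above both phenobarbital mice, with a difference of -0.95 (SE 0.44, adjusted p = 0.209).

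CITCO against the same 4 controls, which are shared with the phenobarbital comparison, gave 12 calls, all higher (0.131%). Cyp2b10 was 3.61 higher under CITCO, Cyp2c29 1.31, Cyp2c55 2.71, Abcc3 0.95 and Ces2a 1.00 (adjusted p = 0.023). Rarb, a retinoic acid receptor, was higher under CITCO than under phenobarbital: it lay at 5.34 and 5.09 against 4.02 and 4.34, the last pair dim, a difference of -1.03 (SE 0.19, adjusted p = 0.0276). Tpmt lay at 7.50 and 7.68 under CITCO, above both phenobarbital mice (-1.19, SE 0.27, adjusted p = 0.0478). Dbp lay at 9.29 and 8.73 (-3.75, SE 0.83, adjusted p = 0.0463). Ifi47 was lower under CITCO, at 8.11 and 8.19 (1.34, SE 0.27, adjusted p = 0.0344).

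Further genes lower under phenobarbital than CITCO were the glycogen-binding Stbd1 (-1.96), Etfbkmt (-1.57), Selenbp1 (-1.44) and the repair nuclease Dclre1a (-1.39), and higher ones the splicing factor Srsf2 (0.85), Nfia (0.77), Tcl1b3 (0.73) and Usp14 (0.73). For Selenbp1, CITCO stood apart rather than phenobarbital: it lay at 10.79 and 10.58 under CITCO, at 9.39 and 9.12 under phenobarbital and at 9.35 to 9.79 on the controls. The count was 0 without phenobarbital array 1, 1464 without phenobarbital array 2, 0 without CITCO array 1 and 595 without CITCO array 2.

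The knockout mice show which of these values moved without any CAR. Phenobarbital against corn oil and TCPOBOP in knockout mice gave 4 calls (0.0436%), 3 higher and 1 lower (0.0109%). Cyp2b10 lay at 5.19 and 5.71 under phenobarbital and at 4.75 to 5.42 on the 4 controls of that genotype, a difference of 0.48 (adjusted p = 0.447). The controls of human CAR mice, at 7.02 to 8.82, were thus above all knockout arrays for this gene, and wild-type corn oil mice lay at 4.66 and 5.22. The phenobarbital effect in human CAR mice minus that in knockout mice was called for 4 genes (0.0436%): Cyp2b10 and Ugcg were higher (0.0218%) and Hprt and Hsd17b10 lower (0.0218%). For Cyp2b10 the difference of effects was 2.90 (SE 0.47, adjusted p = 0.0371).

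Other targets did not reach the threshold in that test. The difference of effects was 1.07 (SE 0.23, adjusted p = 0.167) for Cyp2c29, 1.38 (SE 0.38, adjusted p = 0.337) for Cyp2c54, 1.73 (SE 0.54, adjusted p = 0.417) for Cyp2c55 and 0.91 (SE 0.34, adjusted p = 0.542) for Gadd45b. Against the mean of their controls, Abcc3 and Ces2a had differences of like size in both genotypes. For Abcc3 it was 0.68 in human CAR and 0.69 (adjusted p = 0.0611) in knockout mice, with a difference of 0.00 (SE 0.18). For Ces2a it was 0.57 in both, with a difference of 0.00 (SE 0.24). The knockout controls were uneven: Abcc3 lay at 8.262 and 8.500 on corn oil and at 9.091 and 9.115 on TCPOBOP. Ces2a lay at 10.58 on knockout TCPOBOP array 2, above both knockout phenobarbital mice, at 10.56 and 10.56. Knockout phenobarbital array 2 shared features of human CAR array 1. Igfbp1 lay at 12.22, Gadd45a at 6.14, Dbp at 4.48 and Cyp7a1 at 6.80 on that knockout array, against 7.75, 3.75, 8.61 and 10.33 on knockout phenobarbital array 1. A2m, at 5.10 and 5.25, and Saa3, at 6.74 and 7.04, were not raised in either knockout phenobarbital mouse. For Saa3 the knockout corn oil mice were higher, at 10.28 and 8.64.

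In the difference from knockout mice, the calls of Cyp2b10 and Ugcg depended on the fit. Over 21 alternative settings Cyp2b10 was not called in 9 and Ugcg not in 10, with differences of effects of 2.64 to 3.16 and 1.14 to 1.45. The fit without knockout phenobarbital array 2, in which both genes were called, was counted more than once among the 21. Both were lost with array weights (adjusted p = 1.00 and 0.92) and without human CAR phenobarbital array 1, human CAR TCPOBOP array 1, knockout phenobarbital array 1, knockout corn oil array 1, or either knockout TCPOBOP array. Cyp2b10 was also lost with a variance trend or without human CAR corn oil array 1. Ugcg was also lost with centred arrays, averaged probe sets or without human CAR corn oil array 2. Hprt was called in all 21 and Hsd17b10 in 20.

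Hprt, a purine salvage enzyme, lay at 7.86 and 8.69 under phenobarbital and 8.78 to 9.02 on the controls in human CAR mice, and at 8.89 and 8.68 under phenobarbital and 7.56 to 7.90 on the controls in knockout mice. CITCO gave 8.72 and 8.65 in knockout mice, and wild-type mice lay at 8.83 to 9.07 under phenobarbital or corn oil. The 4 knockout control mice were the lowest of these, together with human CAR array 1. The fall in human CAR mice was not called (-0.59, adjusted p = 0.0587), whereas the rise in knockout mice was (1.06, adjusted p = 0.0286). Hsd17b10, a mitochondrial dehydrogenase, lay at 8.55 and 8.72 against 9.14 to 9.23 in human CAR mice and at 9.60 and 9.76 against 8.87 to 9.29 in knockout mice. Both were called, at -0.53 (adjusted p = 0.0178) and 0.61 (adjusted p = 0.0398). With cyclic loess the test gave 9 genes, 7 of them higher, with arrays centred on their medians 3, with 1 higher, and without human CAR phenobarbital array 2 it gave 306. The count was 2 without human CAR TCPOBOP array 1, knockout corn oil array 1 or knockout TCPOBOP array 2, and 22 and 10 without knockout phenobarbital arrays 1 and 2.

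Against the mouse receptor, phenobarbital was compared by its change from corn oil in each genotype, since TCPOBOP acts in wild-type mice. In wild type it changed 135 genes (1.47%), 82 higher (0.895%) and 53 lower (0.578%), and the difference of effects was called for 15 genes (0.164%), 3 higher and 12 lower in human CAR mice. Cyp2b10 lay at 11.88 and 12.06 under phenobarbital in wild type, little above the human CAR mice, but its change there was 7.03 and the difference of effects -4.26 (SE 0.54, adjusted p = 0.00464). Its corn oil levels were 4.66 and 5.22 in wild type and 8.22 and 8.82 in human CAR mice. Cyp2c55 lay at 11.01 and 11.74 under phenobarbital in wild type from 6.36 and 6.54, and its difference of effects was -3.27 (SE 0.62, adjusted p = 0.0461). Both wild-type mice ended above both human CAR mice, at 7.41 and 7.90.

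Against corn oil in wild type 8 of 20 glutathione transferases and 10 of 33 other conjugation and hydrolysis enzymes rose, against the 0.895% of all tested genes. Against corn oil in human CAR mice 0 of either list rose by limma (3 up and 6 down, and 3 up and 5 down, at an unadjusted p under 0.05). Only 0.109% of all tested genes rose in that comparison, so a count of 0 in lists of this size says little. A difference between the genotypes in these lists was not tested. For Gstm3 the difference of effects was -2.43 (SE 0.50, adjusted p = 0.0704) and for Ces2a -1.41 (SE 0.28, adjusted p = 0.0529), neither called. Cyp2c29 had a difference of 0.22 (SE 0.26, adjusted p = 0.822) and Gadd45b one of -0.55 (SE 0.39, adjusted p = 0.654). The methyltransferase Inmt lay at 11.06 and 11.03 under phenobarbital in wild type, from 8.76 and 9.12, and at 9.07 and 8.74 in human CAR mice, from 9.53 and 10.00. Both treated mice lay above corn oil in wild type and below it in human CAR mice, with a difference of -2.97 (SE 0.42, adjusted p = 0.00723). Leaving out 1 array gave between 0 genes (without wild-type corn oil array 1) and 637 (without human CAR phenobarbital array 2); it gave 7 without human CAR phenobarbital array 1, 4 without human CAR corn oil array 1, 7 and 2 without wild-type phenobarbital arrays 1 and 2 and 4 without wild-type corn oil array 2.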

How the data were processed

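Liver RNA of 24 mice was measured on Affymetrix arrays, 1 array per mouse. Per the submitters' processing notes the authors used RMA with R 2.15.0, and the deposited log2 values were used unchanged (22690 probe sets, no missing value, array medians 5.41 to 5.51). After 64 control probe sets were set aside, 20380 probe sets had 1 gene symbol in the platform annotation; 691 with several and 1555 not listed were left unnamed. A gene was represented by its brightest probe set over all arrays, which gave 12393 genes, and 9167 above the 40th percentile on at least 2 arrays were tested.

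Groups came from the titles. A linear model with 12 group means was fitted to the 24 arrays in limma 3.58.1 (R 4.3.3); for a lone phenobarbital array the other was left out, and the lone mouse was assumed to vary like those of other groups. The inactive controls are the mean of the corn oil and TCPOBOP means. P-values were Benjamini-Hochberg adjusted over all tested genes. Mice numbered alike in different groups are not paired in the labels. The fit was tested on simulated data, with Python 3.11.15 for tables and figures. No 2 arrays were copies: over 276 pairs at most 0.0485% of values were equal. Sequences come from RefSeq promoters of GRCm38.p6, and Cyp2c54 is named without one.

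Genes named in the text were 12 fixed ones (among them Cyp2b10, Nr1i3, Cyp7a1 and Ces2a), the 15 largest rises and 10 largest falls called with both arrays outside the control range, the 8 largest called rises and falls of each array alone, the 5 largest for each other contrast, and list members called in any comparison or else up to 4 with the largest change. The members and lists were chosen with earlier results of these data known. Alternatives were cyclic loess, median centring, other filters and probe set rules, a variance trend, array weights, a replicate block, subsets of arrays and leaving out each array.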

Additional observations from a re-analysis of the deposited data

Results flagged for a closer look

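The phenobarbital effect in human CAR mice differed from that in knockout mice, by the limma test of the difference of effects, for 4 genes. The differences on the log2 scale were 2.90 for Cyp2b10, 1.30 for Ugcg, -1.65 for Hprt and -1.14 for Hsd17b10. Over 21 alternative settings Cyp2b10 lost its call in 9 and Ugcg in 10, both of them with array weights, while Hprt kept it in all 21 and Hsd17b10 in 20. The fit without knockout phenobarbital array 2 was counted more than once among the 21. Cyp2b10 was 3.38 higher under phenobarbital in human CAR mice and 0.48 higher in knockout mice.

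Against wild type, with corn oil as the control in both genotypes, the effects differed for 8 genes covered by the naming rule among the 15 called. They were higher in human CAR mice for Glul (1.93), Bhmt (1.23), an enzyme of methionine metabolism, and Plekhb2 (1.07). They were lower for Cyp2b10 (-4.26), Cyp2c55 (-3.27), Inmt (-2.97), Rarb (-2.02) and Slc25a37 (-1.56), a mitochondrial iron importer. For Bhmt the human CAR mice lay at 11.25 and 11.67 under phenobarbital and at 11.23 and 11.62 on corn oil, and the wild-type mice at 10.89 and 10.63 against 11.96 and 11.96. For Rarb the human CAR mice stayed between 4.02 and 4.34, and the wild-type mice lay at 6.10 and 6.18 under phenobarbital and at 4.09 and 4.22 on corn oil.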

How the results depend on the processing

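With 2 mice per group, counts of calls depended on the arrays and on the fit, and the cause was not tested. For phenobarbital against the inactive controls the 252 calls became 159 with cyclic loess, 2 with array weights, 5 with the 8 human CAR arrays only and 575 with knockout phenobarbital array 2 left out of the fit. They ranged from 3 to 1518 when 1 array was left out. Array 1 alone gave 784 calls with the 8 arrays only (1227 to 1578 with 1 control array left out), and array 2 alone gave 10 with array weights and 11 without the knockout array (3 to 4 with 1 control array left out). Against corn oil the 61 calls became 131 with centred arrays, 108 with a filter at the 60th percentile, 0 with array weights, 4 with the 8 arrays only and 265 without the knockout array (0 to 1311 with 1 array left out). Against TCPOBOP the 50 calls became 17 with array weights, 4 with the 8 arrays only and 214 without the knockout array (3 to 1201). TCPOBOP against corn oil ranged from 0 to 11. Against CITCO the 82 calls became 177 with centred arrays, 0 with array weights, 1 with the 8 arrays only and 325 without the knockout array (0 to 1464). The difference from knockout mice gave 9 with cyclic loess, 1 with array weights and 10 without the knockout array (2 to 306), and the difference from wild type gave 24 with cyclic loess, 25 with probe sets averaged, 4 with array weights and 32 without the knockout array (0 to 637).

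Of 36 named genes called with both arrays, 30 stayed called with cyclic loess, 34 with centred arrays, 29 with a variance trend, 2 with array weights and 5 with the 8 arrays only. Among named genes none reversed in these settings. Without phenobarbital array 1 and without array 2, in that order, the differences had opposite signs for Ddit4 (-0.25 and 3.80), Nr1i3 (-0.093 and 0.41), Pck1 (0.086 and -3.49), Rarb (0.15 and -0.17), Tifa (-0.22 and 3.65), Slc25a37 (-0.30 and 0.14) and Trim24 (1.38 and -0.61). Rarb was also at 0.01 without corn oil array 2 and 0.06 without TCPOBOP array 2, and Slc25a37 at 0.04 without TCPOBOP array 1.

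The labels do not say whether mice with the same number in different groups had more in common than that number. The correlation of their deviations from the group means ran from -0.213 to 0.424 over 6 pairs of human CAR groups. The highest value was that of CITCO with corn oil, and what lies behind it was not tested. With the replicate number as a block, phenobarbital against the inactive controls gave 254 calls and the difference from knockout mice 7 in place of 4.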

Other observations

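Some further gene groups had 1 or 2 calls each. Of 14 glucocorticoid targets 1 rose, the metallothionein Mt2, which lay at 13.18 and 11.99 under phenobarbital against 12.25, 10.37, 10.09 and 10.50 on the controls (1.79, SE 0.42, limma adjusted p = 0.0354). Corn oil array 1 was above the second treated mouse. Of 14 targets of the oxidative stress factor NRF2, 1 rose, the glutathione reductase Gsr (0.37, adjusted p = 0.0486), and of 13 interferon-response genes 1 rose, Mx2 (0.38, adjusted p = 0.0445). Of 16 pericentral genes 1 rose, Glul, and 1 fell, the Wnt regulator Rnf43 (-0.60, adjusted p = 0.046).

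Other lists had no call with both arrays. Of 22 genes of endoplasmic reticulum stress 0 were called by limma (5 up and 1 down at an unadjusted p under 0.05), with a median of 0.15, and array 1 alone gave 5 rises. Of 10 periportal genes 0 were called (0 up and 4 down unadjusted), with a median of -0.22, and of 12 ribosomal protein genes 0 were called (0 up and 4 down unadjusted), with a median of -0.15.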
